A study of Rattus norvegicus with 6 samples.

Results

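The alpha and beta tubulin isotypes were read from the sequenced RNA of dorsal root ganglion (DRG) neurons of spontaneously hypertensive rats (SHRs). The 10 members, chosen by gene name, were Tuba1a, Tuba1b, Tuba1c and Tuba4a among the alpha tubulins and Tubb2a, Tubb2b, Tubb3, Tubb4b, Tubb5 and Tubb6 among the beta tubulins. Each name matched a single row among the 25689 genes of the count table, and all 10 passed the filter on low counts that left 14919 genes for testing. PRATA samples came from wild type SHRs whose perirenal adipose tissue had been ablated on both sides, and sham samples from wild type SHRs that had a sham operation, with 3 samples in each group. The labels give an age of 6 to 8 weeks for every sample, whereas the methods of the study give an older age at purchase. Neurons of the L1-L2 ganglia were collected 4 weeks after the operation, dissociated with collagenase and trypsin, and separated from glia by a difference in the speed of adhesion to a culture dish. No source used here says how many rats gave a sample, so p-values measure the spread between these samples.

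Microtubules are hollow polymers of alpha and beta tubulin dimers. In sensory neurons they fill the long axon and serve as tracks for transport between the cell body and both nerve endings. Mammals make each subunit from several genes, the isotypes, whose proteins are nearly alike apart from their C-terminal tails, where most modifying enzymes act. By general knowledge, Tubb3 is the classical neuronal beta isotype, Tubb2a and Tubb2b are abundant in nervous tissue, Tuba1a is the main alpha isotype of growing neurons and Tuba4a is prominent in mature axons. Tuba1b, Tuba1c, Tubb4b, Tubb5 and Tubb6 are made in many cell types, dividing cells among them. The first 5 genes are called neuron-enriched in what follows and the other 5 broadly expressed.

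The shallowest library held 5892967 counts (sham replicate 2) and the deepest 15226952 (sham replicate 1). Levels are given as CPM, the usual measure of counts relative to the TMM-scaled total of each library over the genes tested, and 3 counts corresponded to between 0.207 and 0.468 CPM. The lowest count of any member was 253, for Tuba1c in sham replicate 2, which is far above that floor, and such floors cover counting error only. In a clustering over all tested genes, one branch held PRATA replicate 3 and sham replicate 1 and the second branch held the remaining 4 samples, so the branches mix both operations. The defining markers of sensory neurons were present in every sample. Their summed level over 18 genes was 10040, 8792 and 10880 CPM in PRATA replicates 1, 2 and 3 and 5481, 8963 and 6535 CPM in sham replicates 1, 2 and 3. Markers of satellite glia, Schwann cells and fibroblasts were also present, which are given beside the results they bear on. In such bulk samples, fewer cells of a type and less RNA per cell cannot be told apart.

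All 5 neuron-enriched isotypes were at a higher level in every PRATA sample than in every sham sample, with fold differences between 1.67 and 1.90. Of the broadly expressed isotypes, Tuba1b, Tubb4b and Tubb5 also had groups that did not overlap, with smaller fold differences between 1.37 and 1.54. Tuba1c and Tubb6 had overlapping groups. Thus 8 of the 10 members lay higher after PRATA without overlap, against 11.6% of all genes tested, and 0 lay lower, against 11.2%. In the quasi-likelihood test of edgeR, an unadjusted p under 0.05 was reached by the same 8 members in the upward direction, against 8.19% of all genes, and by 0 in the downward direction, against 10.1%. The median log2 fold change of the 10 members was 0.68, and that of all genes tested was 0.025. No member reached an adjusted p under 0.05 in edgeR with Benjamini-Hochberg adjustment over all genes, nor did any other gene (0.0%), while 1222 genes were higher and 1512 lower at an unadjusted p under 0.05. DESeq2 placed 7 members higher at an adjusted p under 0.05, against 1.93% of the genes to which it gave an adjusted p. Limma voom with sample quality weights placed 6 members higher, against 3.0%. The calls at an adjusted p thus depended on the tool, and over 18 alternative fits the adjusted p of the neuron-enriched members ranged from 0.000386 to 0.55.

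**Figure D1:**
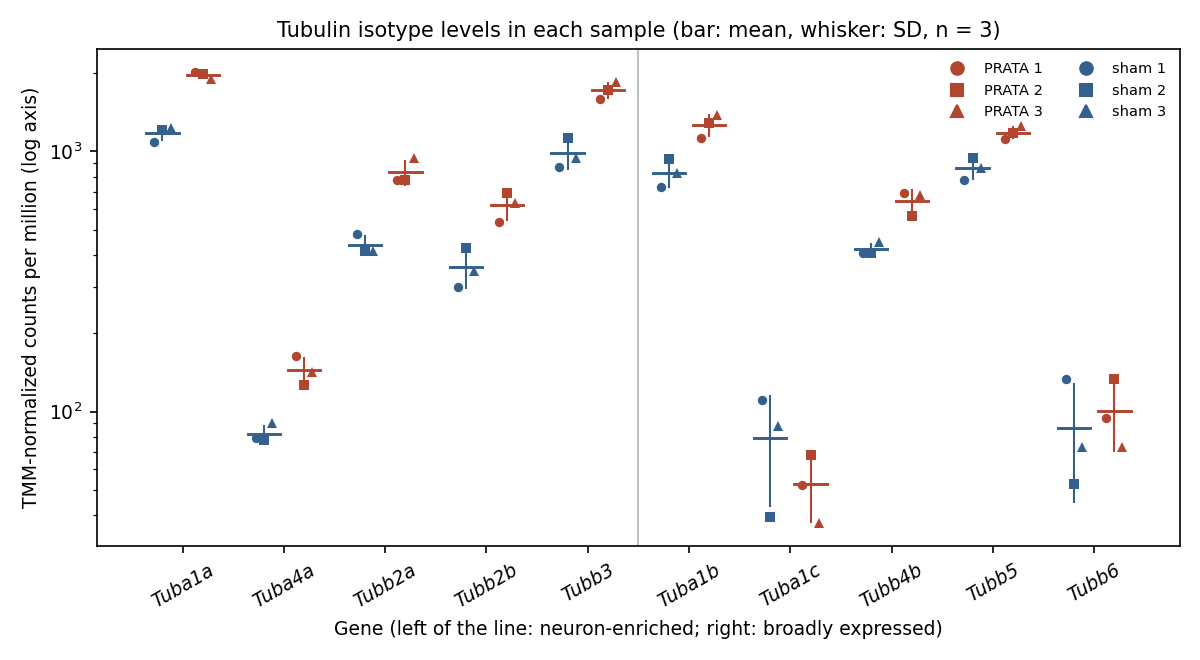
TMM-normalized CPM (log axis) of the 10 isotypes in each of the 3 PRATA (red) and 3 sham (blue) samples, with symbols for the replicate number, bars for means and whiskers for SD. For 8 genes the red points lie above all blue points, while Tuba1c and Tubb6 overlap, and because the counts are not scaled by transcript length the heights of different genes are not to be compared.

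Tubb3 (ENSRNOG00000017209), the isotype that marks neurons, was at 1588, 1729 and 1847 CPM in PRATA replicates 1, 2 and 3 and at 874, 1127 and 946 CPM in sham replicates 1, 2 and 3. The lowest PRATA value thus stood well clear of the highest sham value. Its log2 fold change was 0.81 (95% confidence interval 0.33 to 1.29, adjusted p = 0.168 by edgeR), a 1.75-fold difference, and DESeq2 gave an adjusted p of 0.00344. Without sham replicate 2 its edgeR adjusted p was 0.0492, and no other member was under 0.05 in that fit, which called 1.05% of all genes higher against 0.0% with all samples.

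Tubb2a (ENSRNOG00000017558), a beta isotype of nervous tissue, showed the highest fold difference of the members. It was at 775, 777 and 945 CPM after PRATA and at 483, 415 and 415 CPM after the sham operation. The log2 fold change was 0.93 (95% confidence interval 0.47 to 1.39, adjusted p = 0.156 by edgeR), or 1.90-fold, which placed it above 97.3% of all genes tested. Tubb2b (ENSRNOG00000017445), which lies on chromosome 17 like Tubb2a and is mutated in human cortical malformations, was at 533, 693 and 634 CPM after PRATA and 302, 424 and 349 CPM after sham. Its log2 fold change was 0.79 (95% confidence interval 0.29 to 1.29, adjusted p = 0.168 by edgeR). Both genes therefore separated the groups, although in sham replicate 1 Tubb2a was at its highest sham value and Tubb2b at its lowest.

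Tuba1a (ENSRNOG00000060728), an alpha isotype of neurons, varied little within the groups. It was at 2012, 1979 and 1896 CPM after PRATA and at 1088, 1209 and 1229 CPM after sham, with coefficients of variation of 3.05% and 6.49%. Its log2 fold change was 0.74 (95% confidence interval 0.29 to 1.19, adjusted p = 0.168 by edgeR). Tuba4a (ENSRNOG00000003597), which encodes an alpha tubulin that lacks the terminal tyrosine in its gene-encoded sequence, was at 164, 127 and 141 CPM after PRATA and 79.2, 77.9 and 90.0 CPM after sham. It had the lowest unadjusted p of the members (0.00133) and a log2 fold change of 0.81 (95% confidence interval 0.42 to 1.19, adjusted p = 0.156 by edgeR). By that p it ranked at place 117 of all genes tested.

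The bases before the RefSeq transcription start of 3 beta isotypes are shown because these genes span the range of fold differences among the beta members that separated the groups: Tubb2a the widest, Tubb3 the neuronal marker and Tubb5 the narrowest. Each run holds the 250 bases before the start, 5′ to 3′ on the strand of the gene, from RefSeq on build GRCr8. Capitals mark the matches, on either strand, to the GC box GGGCGG, to CCAAT, to the TATA box written as TATAAA and to the full cyclic AMP response element TGACGTCA, none of which overlap in these runs.
Tubb2a, chr17:31001936-31002185, strand +: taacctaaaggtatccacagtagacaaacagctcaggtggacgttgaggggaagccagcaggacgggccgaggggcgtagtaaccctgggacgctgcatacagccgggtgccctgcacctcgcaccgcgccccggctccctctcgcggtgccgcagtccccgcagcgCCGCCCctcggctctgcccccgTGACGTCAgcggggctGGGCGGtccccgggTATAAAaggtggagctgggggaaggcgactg
Tubb3, chr19:68365437-68365686, strand +: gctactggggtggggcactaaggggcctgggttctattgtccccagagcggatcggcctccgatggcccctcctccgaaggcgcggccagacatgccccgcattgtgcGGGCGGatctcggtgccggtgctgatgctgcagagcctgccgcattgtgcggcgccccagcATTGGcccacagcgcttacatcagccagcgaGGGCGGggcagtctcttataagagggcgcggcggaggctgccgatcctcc
Tubb5, chr20:2917327-2917576, strand +: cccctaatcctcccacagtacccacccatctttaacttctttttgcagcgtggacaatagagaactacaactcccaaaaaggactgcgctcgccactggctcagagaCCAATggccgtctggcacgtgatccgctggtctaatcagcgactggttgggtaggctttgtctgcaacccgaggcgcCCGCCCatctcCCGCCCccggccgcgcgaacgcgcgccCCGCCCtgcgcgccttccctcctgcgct
All 10 members had such a window, with 52.0% to 80.4% of bases G or C, against a median of 51.2% over all promoter windows. GGGCGG was found in 9 of the 10 and in 33.5% of 27457 genes, and CCAAT in 8 of the 10 and in 36.1% of genes. The shares of genes with a motif were not adjusted for base content. TATAAA was found before Tubb2a, from 31 bases before the start, and before Tubb4b, from 27 bases before it, as in 14.1% of all genes. TGACGTCA was found before Tubb2a alone, from 61 bases before the start, and in 1.78% of all genes. The half-site TGACG, which is part of the full element, was in 3 of the 10 (Tuba4a, Tubb2a and Tubb2b) and in 5480 of the 27457 genes, and CANNTG (E-box) in 8 of the 10 and in 67.0%. A match of letters is not a bound site, and no binding was measured in these samples.

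Among the broadly expressed isotypes, Tuba1b and Tubb4b were closest to the neuron-enriched ones. Tuba1b (ENSRNOG00000053468), which lies on chromosome 7 like Tuba1a, was at 1128, 1288 and 1379 CPM after PRATA and at 727, 937 and 823 CPM after sham. Its log2 fold change was 0.61 (95% confidence interval 0.13 to 1.09, adjusted p = 0.209 by edgeR). Tubb4b (ENSRNOG00000010170), a beta isotype of most tissues and of cilia, was at 692, 567 and 678 CPM after PRATA and 407, 406 and 447 CPM after sham, a log2 fold change of 0.62 (95% confidence interval 0.18 to 1.06, adjusted p = 0.182 by edgeR). Every PRATA value of both genes exceeded every sham value. DESeq2 gave adjusted p values of 0.0469 and 0.0257 for them, and over all alternative fits these ranged from 0.0469 to 0.551 and from 0.0257 to 0.554.

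Tubb5 (ENSRNOG00000061216), the general beta isotype of many cell types, had the smallest difference among the members whose groups were apart. It was at 1115, 1173 and 1250 CPM after PRATA and at 774, 945 and 861 CPM after sham. The log2 fold change was 0.46, with a 95% confidence interval from 0.0021 to 0.91 and an adjusted p of 0.271 by edgeR, or 0.122 by DESeq2 and between 0.0893 and 0.635 over all alternative fits. A difference between nearly none and 1.88-fold was therefore compatible with the spread of its samples.

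Tuba1c (ENSRNOG00000021438) and Tubb6 (ENSRNOG00000018371), both made outside the nervous system as well, varied most between samples of a group. Tuba1c was at 52.2, 68.0 and 37.3 CPM after PRATA and at 110, 39.5 and 88.2 CPM after sham, with coefficients of variation of 29.2% and 45.7%. Sham replicate 2 fell among the PRATA values, whereas sham replicates 1 and 3 were higher than all of them. Its log2 fold change was -0.60 (95% confidence interval -1.46 to 0.26, adjusted p = 0.420 by edgeR). Without sham replicate 2 it was -0.92 (adjusted p = 0.0810 by edgeR, with a range of 0.0810 to 0.939 over all alternative fits), and in the 4 samples without PRATA replicate 3 and sham replicate 1 it was -0.11.

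Tubb6 was at 94.8, 133 and 72.8 CPM after PRATA and at 134, 52.9 and 72.8 CPM after sham. The PRATA values lay within the range of the sham values, with a log2 fold change of 0.21 (95% confidence interval -0.62 to 1.04, adjusted p = 0.792 by edgeR). Its direction differed between the sample clusters. Within the cluster of 4 samples its log2 fold change was 0.85 (unadjusted p = 0.0175 by edgeR), while PRATA replicate 3 lay 0.88 below sham replicate 1 on the log2 scale in the pair that clustered apart. For the 8 members whose groups were apart, the log2 fold change within the 4 samples lay between 0.34 and 0.89, and PRATA replicate 3 exceeded sham replicate 1 by 0.69 to 1.08. The pair has 1 sample of each group and allows no test.

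The share that each isotype takes of the reads on its family describes the composition apart from the total. Reads were not scaled by transcript length, so a share is compared between groups and not between genes. All 10 members together took 0.777%, 0.877% and 0.871% of all counts after PRATA and 0.473%, 0.613% and 0.527% after sham, without overlap. Of the alpha reads, Tuba1a held 57.3% ± 2.53 (SD, n = 3) after PRATA and 54.3% ± 0.85 (SD, n = 3) after sham. The Tuba1b share was 36.9% ± 3.16 and 38.2% ± 2.80, and the Tuba4a share 4.21% ± 0.62 and 3.81% ± 0.32. Tuba1c held 1.55%, 1.96% and 1.08% of alpha reads after PRATA and 5.51%, 1.74% and 3.96% after sham. These 4 shares overlapped between the groups.

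Among the beta reads, the share of Tubb5 was 23.3%, 23.1% and 23.0% after PRATA and 26.0%, 28.0% and 27.9% after sham. It was the one share of 10 whose groups did not overlap, with a difference of PRATA minus sham of -4.17 percentage points (exact permutation test, two-sided, p = 0.10, 0.50 after adjustment over 10 shares). The SD of this share was 0.11 percentage points among the PRATA samples and 1.10 among the sham samples. Tubb3 held 33.7% ± 0.56 (SD, n = 3) after PRATA and 31.1% ± 2.08 (SD, n = 3) after sham, and Tubb2a 16.3% ± 1.05 and 14.0% ± 2.02. The shares of Tubb2b (12.2% and 11.3%), Tubb4b (12.7% and 13.4%) and Tubb6 (1.98% and 2.81%) differed between the group means by less than 1 percentage point. With 3 samples against 3, the exact test cannot give a p under 0.10.

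**Figure D2:**
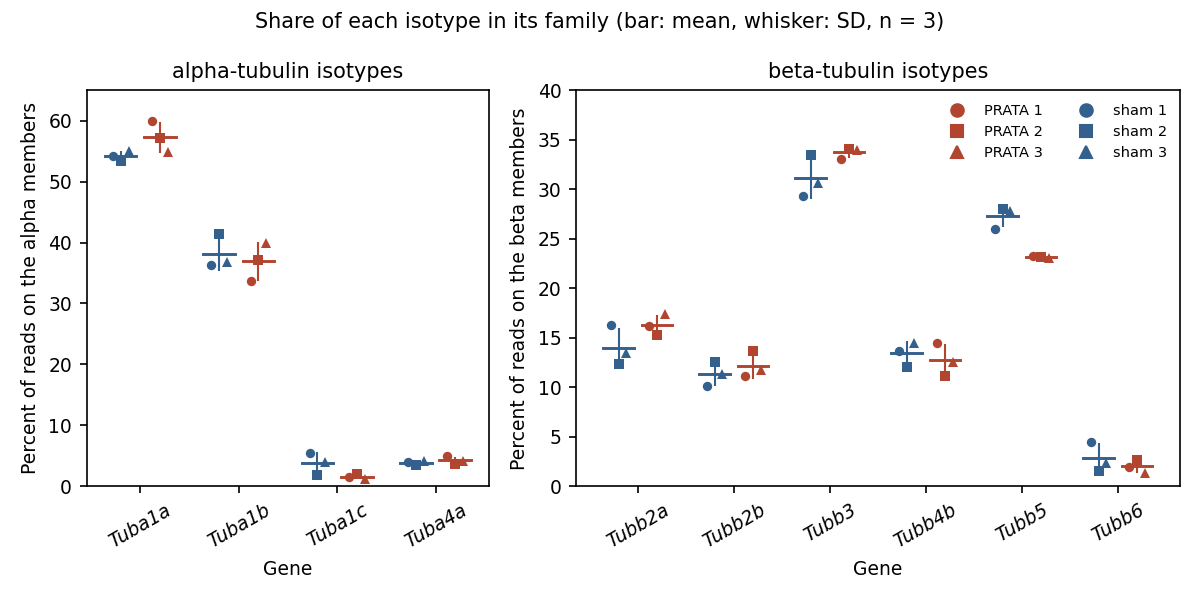
Percent of the reads on the 4 alpha members (left) and the 6 beta members (right) that fell on each isotype, in 3 PRATA (red) and 3 sham (blue) samples, with bars for means and whiskers for SD. The red and blue points overlap for every isotype but Tubb5, whose mean share was 23.1% after PRATA and 27.3% after sham.

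Summed over their genes, the neuron-enriched isotypes reached 5072, 5304 and 5463 CPM after PRATA and 2826, 3254 and 3029 CPM after sham. The broadly expressed isotypes reached 3083, 3229 and 3417 CPM after PRATA and 2153, 2381 and 2292 CPM after sham. Both sums were higher in each PRATA sample than in each sham sample, by 0.80 and 0.51 on the log2 scale. The log2 ratio of the neuron-enriched to the broad sum was 0.72, 0.72 and 0.68 after PRATA and 0.39, 0.45 and 0.40 after sham. This ratio was higher after PRATA by 0.29, and its SD was 0.023 among the PRATA samples and 0.031 among the sham samples (p = 0.10 by a two-sided exact permutation test, and 0.10 after adjustment over 3 values). With any sample left out, this difference lay between 0.28 and 0.31, and within the 4 samples of the larger cluster it was 0.29. The classes of isotypes were chosen with earlier results of these data known, so this is not a contrast set independently of the data.

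Markers of cell types also differed in level between samples. All 18 sensory neuron markers had a log2 fold change above 0, with a median of 0.44, where 52.0% of all genes tested were above 0. Among these 18 markers, 5 passed an unadjusted p under 0.05 upward in edgeR, against 8.19% of all genes. Their summed level nevertheless overlapped, because sham replicate 2 (8963 CPM) exceeded PRATA replicate 2 (8792 CPM). The 7 satellite glia markers summed to between 3139 and 5933 CPM after PRATA and between 4135 and 8217 CPM after sham. Of these, 0 of the 7 had a log2 fold change above 0 (median -0.48), against 52.0% of all genes. The 9 Schwann cell markers (1040 to 1867 and 1136 to 1434 CPM) and the 8 fibroblast markers in the table (508 to 2609 and 1410 to 2606 CPM) overlapped too. The log2 fold change was above 0 for 6 of the 9 Schwann cell markers (median 0.69) and 1 of the 8 fibroblast markers (median -0.49). Macrophage markers (39.4 to 171 and 39.1 to 99.98 CPM), endothelial markers (56.7 to 106 and 24.1 to 152 CPM) and markers of dividing cells (17.6 to 30.7 and 12.9 to 37.0 CPM) were low, and no marker in the table was at 0 in every sample. Of those tested, 7 of 9 macrophage markers (median 0.72), 5 of 6 endothelial markers (0.30) and 3 of 5 dividing cell markers (0.078) had a log2 fold change above 0. The part of cell composition in the tubulin differences was not tested by these sums.

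When the mean log2 level of the 18 sensory neuron markers was subtracted in each sample, the groups of all 10 members overlapped. No share of all genes on this scale is given here to set beside that count. The difference then was 0.41 for Tubb2a, 0.30 for Tubb3, 0.28 for Tuba4a, 0.28 for Tubb2b and 0.22 for Tuba1a on the log2 scale (exact permutation tests, two-sided, p = 0.20 to 0.50, and 0.60 to 0.71 after adjustment over 10 members). It was 0.096 for Tuba1b, 0.099 for Tubb4b, -0.057 for Tubb5, -0.24 for Tubb6 and -1.03 for Tuba1c. Sham replicate 2 had the lowest value of the sham samples for each of the 10 members on this scale, and without it the 5 neuron-enriched differences lay between 0.072 and 0.24. Other settings gave groups apart for single members, some upward and some downward, again with no share of all genes on this scale. Without the subtraction, leaving out a sample put 13.5% to 23.6% of all genes apart upward and 12.8% to 22.1% downward. With the median of the markers in place of their mean, Tuba4a was apart at 0.30 (exact permutation test, p = 0.10). Without sham replicate 1 Tubb2a was apart at 0.63, and without PRATA replicate 1 Tubb2b was apart at 0.43 and Tubb3 at 0.40 (exact permutation tests, p = 0.10 each, the smallest they can give). In the downward direction, Tuba1c was apart at -1.64 and Tubb4b at -0.098 without sham replicate 2 (exact permutation tests, p = 0.10 each).

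**Figure D3:**
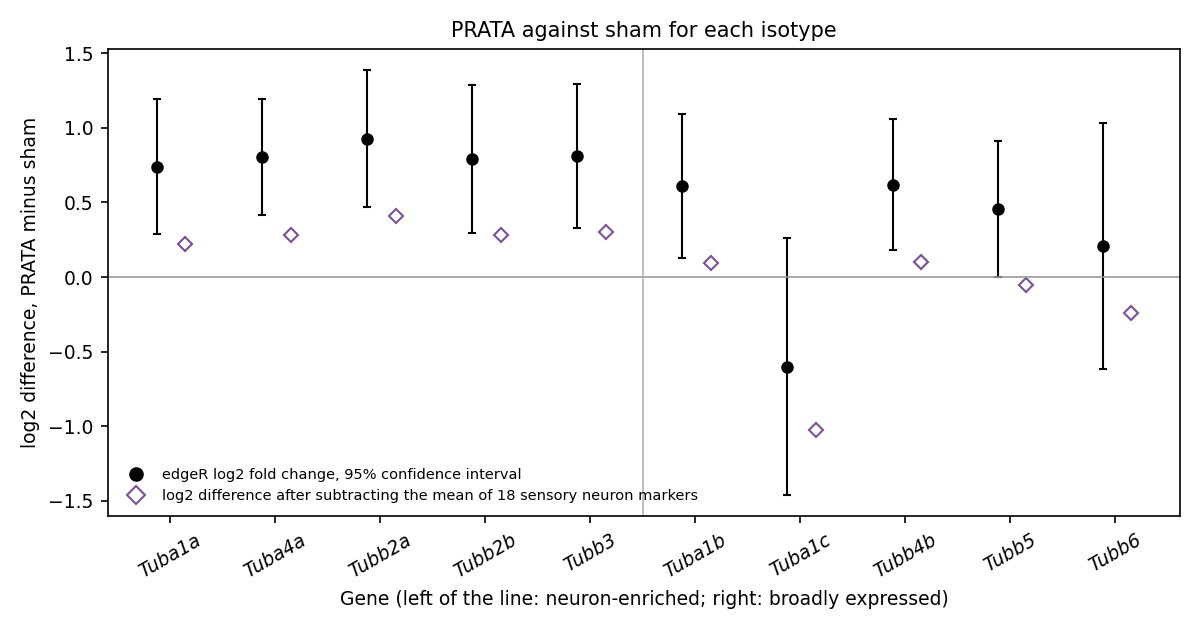
Log2 difference between PRATA and sham for each isotype, as the edgeR log2 fold change with its 95% confidence interval (black circles) and after the mean of 18 sensory neuron markers was subtracted in each sample (open diamonds). The intervals of 8 isotypes lie above 0. The diamonds lie lower than the circles for every isotype, at 0.41 or less, which follows from subtracting the same marker means from each.

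**Figure D4:**
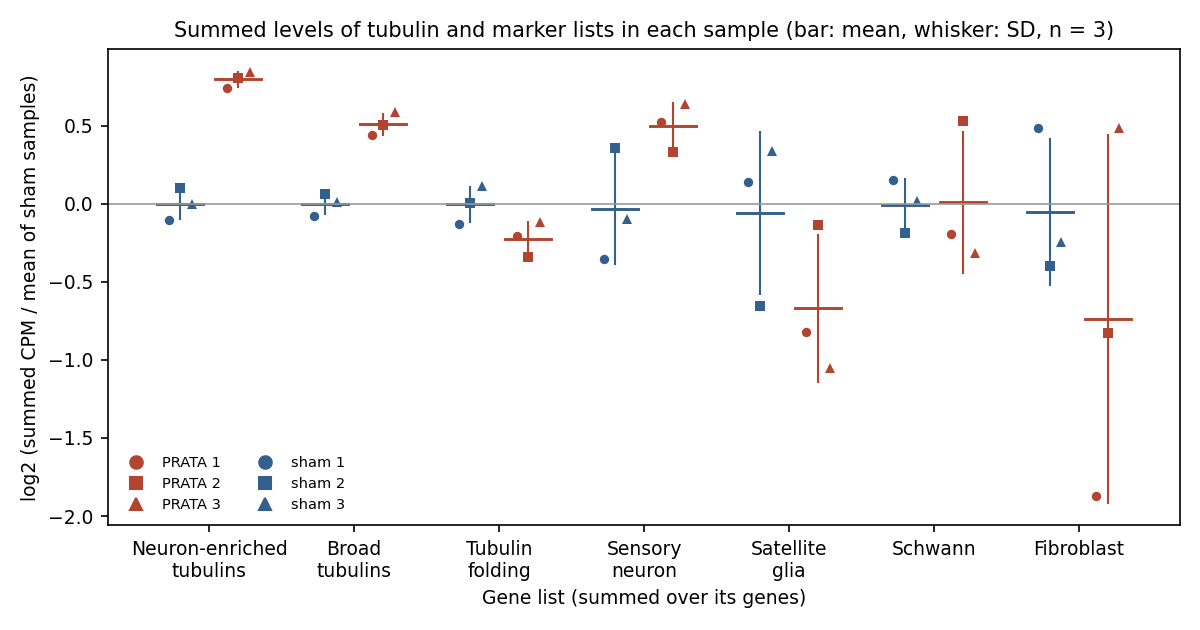
Summed level of 2 groups of tubulin isotypes, of the tubulin folding genes and of 4 lists of cell type markers in each sample, as the log2 ratio to the mean of the sham samples, with bars for means and whiskers for SD. PRATA (red) and sham (blue) samples do not overlap for both tubulin sums, while every marker list overlaps.

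Genes with a pattern close to a member were sought among 9249 others with a mean of at least 10 CPM, by the root mean square difference of centred log2 levels over the 6 samples. Closest to Tubb3 were Nectin2 (0.047), Stx1a (0.053) and Prph (0.056), a nectin adhesion molecule, a presynaptic syntaxin and the intermediate filament peripherin, whereas the median over all genes was 0.49. Tubb2b ranked at place 7 and Tuba1b at place 21 of the same order, while Tuba1c ranked at place 8577. Closest to Tubb2a were Rps6kl1, Slc4a3 and Irgq (0.062 to 0.090). Closest to Tubb6 were Zfp36, Ptpn13 and Sipa1l2 (0.058 to 0.076), and the nearest other member was Tuba1c, at place 1820. These values describe likeness in 6 samples of 2 groups and carry no test.

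Of 11 other tubulin genes listed, 10 were in the table and 6 were tested. Tubb4a, a beta isotype of neurons and oligodendrocytes, was at 480, 416 and 505 CPM after PRATA and at 276, 306 and 335 CPM after sham, which gave a log2 fold change of 0.61 (adjusted p = 0.184 by edgeR). Tubg1, a gamma tubulin that starts new microtubules, was at 41.7, 36.5 and 56.0 CPM after PRATA and 29.2, 32.0 and 29.2 CPM after sham. Both genes were apart upward between the groups, as were 11.6% of all genes. They made up the 2 of 6 that passed an unadjusted p under 0.05 upward, against 8.19% of all genes. With a sample left out, 1 to 3 of the list passed, where 3.47% to 13.4% of all genes did. In the 4 samples of the larger cluster 0 passed, where 5.98% of all genes did. Tubg2 had a log2 fold change of 0.48 with overlapping groups. Tuba8 was tested at 10 to 46 counts per sample (1.34 to 3.18 CPM), with overlapping groups and a log2 fold change of -0.25. The untested Tubb1, Tuba3a, Tuba3b and Tubal3 had at most 15, 6, 7 and 3 counts in any sample.

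In the list of the gamma tubulin ring complex and its partners, 8 of 9 genes were tested, 0 passed an unadjusted p under 0.05 upward and 1 downward, where 8.19% and 10.1% of all genes did, so the share that passed downward was near that of all genes. That gene was Nedd1, which brings the complex to the centrosome and spindle, at 2.97, 3.67 and 4.67 CPM after PRATA and 11.2, 7.80 and 8.88 CPM after sham (log2 fold change -1.30, adjusted p = 0.156 by edgeR). Tubgcp2, a core subunit, was higher in each PRATA sample (log2 fold change 0.41, unadjusted p = 0.0626 by edgeR), Mzt2b lower in each (-0.50, unadjusted p = 0.0935), and Tubgcp3 overlapped (-0.17).

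Newly made tubulin is folded by prefoldin, the CCT chaperonin and the tubulin cofactors. In the folding list 9 of 22 genes had a log2 fold change above 0, with a median of -0.17, and 1 gene passed an unadjusted p under 0.05 upward and 2 downward. By that p, neither share was above that of all genes (8.19% and 10.1%). Without overlap, 7 of the 22 lay lower, against 11.2% of all genes, and 2 lay higher, against 11.6%. Summed over the list, the level was 1946, 1775 and 2069 CPM after PRATA and 2057, 2258 and 2428 CPM after sham, an overlap of a single pair of samples. The 8 CCT subunits, singled out after their values were seen, all had a log2 fold change below 0, between -0.44 and -0.18, and 6 of them lay lower in each PRATA sample than in each sham sample, against 11.2% of all genes. Cct3 was at 157, 153 and 160 CPM after PRATA and 203, 197 and 226 CPM after sham (log2 fold change -0.41, adjusted p = 0.233 by edgeR), and Cct4 had -0.44. The subunits Cct5 (-0.29) and Tcp1 (-0.36) were the genes of the list with the most reads. Vbp1, a prefoldin subunit, was higher after PRATA (0.44, unadjusted p = 0.0418 by edgeR).

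The level of tubulin RNA is tuned by the free tubulin in the cell, through TTC5, which binds nascent tubulin at the ribosome, and the CCR4-NOT complex, which removes RNA tails. Of these 11 genes 0 passed an unadjusted p under 0.05 in edgeR, where 8.19% of all genes did upward and 10.1% downward. Ttc5 was at 30.1, 21.9 and 26.1 CPM after PRATA and 14.8, 23.9 and 19.4 CPM after sham, with overlapping groups and a log2 fold change of 0.43 (unadjusted p = 0.0933 by edgeR). The other 10 genes had a log2 fold change below 0, among them Cnot3 (-0.40), Cnot6 (-0.37), Cnot1 (-0.26) and Cnot8 (-0.0083).

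Of 29 genes that add or remove modifications on tubulin tails and lumen, 22 were tested, 13 of them above 0 with a median log2 fold change of 0.25. An unadjusted p under 0.05 was reached by 2 upward and 0 downward, and the share upward was near the 8.19% of all genes. Tpgs1, a subunit of the polyglutamylase complex, was at 21.6, 22.5 and 27.4 CPM after PRATA and at 14.8, 16.2 and 15.7 CPM after sham (log2 fold change 0.62, adjusted p = 0.175 by edgeR). Vash1, a carboxypeptidase that removes the terminal tyrosine of alpha tubulin, had 0.54 (adjusted p = 0.221 by edgeR), and the deacetylase Hdac6 had 0.37 (unadjusted p = 0.0512 by edgeR), both with groups apart. The glutamylase Ttll7 and the deglutamylase Agtpbp1, the genes of the list with the most reads, had 0.51 and 0.48 with overlapping groups. Without sham replicate 2, 8 genes of this list passed the same p upward, where the share of all genes was 13.4%, and within the 4 samples of the larger cluster 0 did, where it was 5.98%. In the folding list, 4 genes passed downward without sham replicate 1, where 8.91% of all genes did, and 0 without PRATA replicate 1, PRATA replicate 2 or sham replicate 3, where 5.44%, 7.86% and 5.57% did.

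**Figure D5:**
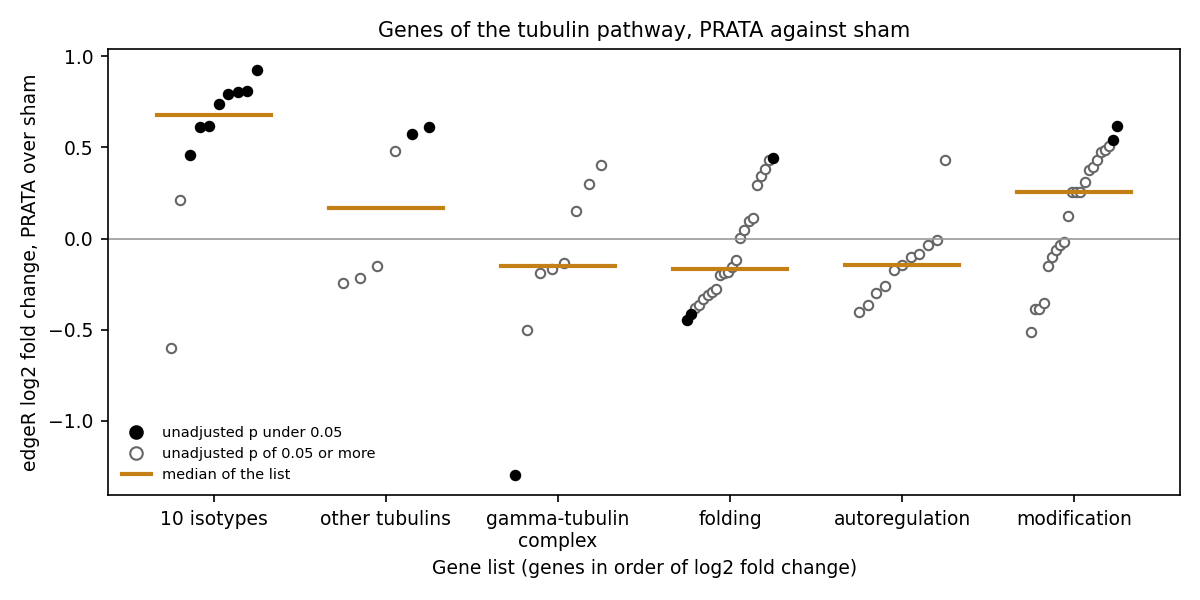
The edgeR log2 fold change of PRATA over sham for each tested gene of the 10 isotypes and of 5 lists of related genes, with filled points for an unadjusted p under 0.05 and a line at the median of each list. The medians are 0.68 for the isotypes, 0.17 for other tubulins, -0.15 for the gamma tubulin complex, -0.17 for folding, -0.14 for autoregulation and 0.25 for modification.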

How the data were processed

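RNA of neurons from L1-L2 ganglia was sequenced in 3 PRATA and 3 sham samples as stranded, rRNA-depleted paired-end libraries. The deposited values are raw counts of reads per gene, without normalization, made by the authors. The submitters' processing notes name STAR 2.7.3a, RSEM and DESeq2, while the methods of the study name HISAT2, StringTie and Cuffdiff for FPKM values. The genome build, annotation, strand setting and treatment of reads that map to several places are not given in the sources used here. Tubulin paralogs have near-identical coding sequences, and RefSeq lists 14 pseudogenes named for Tuba1b, 5 for Tuba1a, 4 for Tubb4b and 1 for Tuba4a, so the split of reads among isotypes is uncertain.

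Counts were filtered with edgeR's filterByExpr (minimum count 10, minimum total 15), scaled by TMM and compared by the quasi-likelihood test in edgeR 4.0.16 under R 4.3.3, as a two-sided test whose p-values were adjusted by Benjamini-Hochberg across the genes tested. DESeq2 1.42.0 and limma 3.58.1 (voom, and limma-trend with a pseudocount of 1) were alternatives. Scripts were tested on simulated data. Confidence intervals come from the edgeR fit. Shares, sums and levels relative to markers were compared by the exact permutation test over samples. The members, the classes of isotypes and the gene lists were chosen with earlier results of these data known. The genes named are all members, the up to 3 genes of each related list with the smallest p and up to 2 with the highest level, and the 3 closest patterns for Tubb3, Tubb2a and Tubb6. Exon lengths were not used here, so levels are not compared between genes. Promoter windows were read from RefSeq. Figures were drawn with matplotlib 3.10.9.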

Additional observations from a re-analysis of the deposited data

How the results depend on the processing

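Alternatives were other scaling, filters, tests, the replicate number as a block, each sample left out, the 4 samples without PRATA replicate 3 and sham replicate 1, protein-coding genes alone and, added after seeing the data, a term for the 2 sample clusters. At an adjusted p under 0.05, DESeq2 placed 7 members higher, with 1.93% of the genes to which it gave an adjusted p. Limma voom with sample quality weights placed 6 higher, with 3.0% of all genes. Leaving out samples gave 0, except for 1 without sham replicate 2, with 1.05% of all genes. At an unadjusted p under 0.05, the replicate block left 5 members higher, with 4.16% of all genes, and 1 member (Tuba1c) was lower with voom quality weights, with 15.3% of all genes. With a sample left out, 6 to 8 members were higher (3.47% to 13.4% of all genes) and 0 to 1 lower (5.44% to 14.1%) at that p. Groups were apart downward for 0 to 1 members, where 12.8% to 22.1% of all genes were. The 1 member was apart without sham replicate 2, the setting with 22.1% of all genes. No label ties samples by their replicate number. Samples that share a number deviated from the means of their groups with a mean r of -0.25 over genes, which do not count as replicates. With deviations taken from means of only 3 samples, this r cannot decide whether the numbers pair the samples. With the block, the log2 fold change was 0.92 for Tubb2a (adjusted p = 0.461) and 0.81 for Tubb3 (adjusted p = 0.462) by edgeR, and the mean same-numbered difference of the log2 ratio of neuron-enriched to broad isotypes stayed at 0.29.

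The log2 fold changes of 9 members kept their sign in all 18 alternative fits. That of Tubb6 lay between -0.049 and 0.66 with a sample left out, where it was below 0 without PRATA replicate 2 or sham replicate 2 (-0.042). Differences in share changed sign with a sample left out for Tuba1b (-2.77 to 0.38 percentage points), Tubb4b (-1.57 to 0.050) and Tubb6 (-1.45 to 0.018), the last also in the 4 samples (0.34). Relative to neuron markers, the log2 difference crossed 0 for Tuba1b (-0.025 to 0.22), Tubb4b (-0.098 to 0.22), Tubb5 (-0.16 to 0.031) and Tubb6 (-0.71 to 0.28). The causes were not tested. Counts per kb of exon were not run, since no exon lengths were used here. The lowest count of a member in any sample was 253, so depth limits Tuba1c in the shallowest library most.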
